A study of Mus musculus with 2 samples.

Results

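Platelet-marker barcodes were taken from 2 10x Chromium libraries of mouse blood by the transcripts they carried. A barcode, the tag shared by the RNA of 1 droplet, was taken when under 50% of its unique molecular identifiers (UMIs, each counting 1 captured transcript) came from Hba-a1, Hba-a2, Hbb-bs and Hbb-bt and when it held UMIs of at least 2 of 13 platelet genes. No limit was set on the number of genes or on the share of mitochondrial UMIs. The rule took 72 of 1857 barcodes: replicate 1 gave 33 of its 1008 barcodes, or 3.27% (exact Clopper-Pearson 95% bounds 2.26% and 4.57%), and replicate 2 gave 39 of 849, or 4.59% (3.29% and 6.23%). Such bounds, and the floors given below, cover counting error only.

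Both libraries came from wild type mice that had undergone burn/tenotomy, an injury in which the skin is burned and a tendon is cut and which leads to bone formation in soft tissue. Whole blood had been sorted on the microfluidic iChip before barcoding, and the labels describe the product as blood cells together with cMPCs, circulating mesenchymal progenitor cells. There is thus 1 group of 2 libraries, with no uninjured blood among the samples used, and whether each replicate had its own mouse is not stated. All comparisons below are therefore between kinds of barcode. The p-values measure only the spread between these libraries, in several fits pooled over all genes, and it may be technical.

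Platelets are small cells without a nucleus that megakaryocytes shed into blood. They carry mitochondria, a limited store of messenger RNA received from the megakaryocyte, and alpha granules filled with adhesive proteins, growth factors and chemokines. At a wound, collagen and von Willebrand factor are bound by surface glycoproteins, integrins are switched from a resting to a binding state, and an actin and myosin skeleton changes the cell's shape and contracts the clot.

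The libraries held 3967318 and 3329292 UMIs, and 0 barcode sequences were shared between them. Barcodes under 50% haemoglobin numbered 534 and 476, and the platelet-marker barcodes were 6.18% and 8.19% of them. Red cells, defined here by at least 90% haemoglobin UMIs, numbered 173 and 162 and served as the background for transcripts from free RNA. In red cells, 3 of 173 and 1 of 162 barcodes held a UMI of any of the 13 markers, at a median depth of 10580 and 11121 non-mitochondrial UMIs. None of the 173 or 162 held 2 (0%, interval up to 2.11% and 2.25%). The median depth of the platelet-marker barcodes was far lower, 268 and 284 non-mitochondrial UMIs. Doublets were not called.

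Some barcodes that met the rule carried the transcripts of other cells. In replicate 2, 4 of the 39 held between 9 and 17 markers from lists of 12 mesenchymal and 12 mesothelial or epithelial genes, such as Col3a1 and Upk3b, and exactly 2 platelet markers each. Their depth was 6899 to 11881 non-mitochondrial UMIs, and only 0.0236% of these UMIs came from the 13 markers. Replicate 1 had 0 such barcodes. At least 5 erythroid markers were found in 1 barcode of replicate 1, which also held 8 platelet markers, and in 2 barcodes of replicate 2, which held 2 platelet markers each and 15.2% and 19.2% haemoglobin UMIs. At least 2 leukocyte markers were found in 5 and 4 barcodes. The label of a platelet thus went against the leading transcripts of the 4 mesothelial-marker barcodes, and some values are given below both with and without them.

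A stricter set, the barcodes with at least 3 of the 13 markers, held none of those 4. It numbered 20 in replicate 1 and 23 in replicate 2, 43 in all, and the other 13 and 16 held exactly 2 markers, the edge of the rule. Just outside the rule, 59 and 37 barcodes under 50% haemoglobin held exactly 1 marker. At the other end, 14 and 15 barcodes held at least 5 markers, and the highest number was 12 in replicate 1 and 10 in replicate 2. The barcode with 12 markers had 113 marker UMIs among 2217 non-mitochondrial UMIs. Barcodes with exactly 2 markers were shallow in replicate 1, with a median of 59 non-mitochondrial UMIs against 455.5 for those with at least 3; in replicate 2 these medians were 168.5 and 329.

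The 13 markers chose the barcodes, so their levels are a description. Nrgn (neurogranin, a calmodulin-binding protein) was found in 32 of 33 and 33 of 39 barcodes, with 154 and 142 UMIs. Itgb3 (the beta subunit of the fibrinogen receptor) was found in 27 and 24 barcodes with 177 and 114 UMIs, and its partner subunit Itga2b in 15 and 21 barcodes with 40 and 48 UMIs. The chemokine genes Ppbp and Pf4, whose products are stored in alpha granules, were found in 18 and 28 and in 10 and 12 barcodes, with 128 and 89 UMIs of Ppbp and 29 and 22 UMIs of Pf4. These chemokine genes are neighbours on chromosome 5 (GRCm38, plus strand), Ppbp at chr5:90768518-90770063 and Pf4 at chr5:90772435-90773383.

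The receptor genes were sparser. Gp9, Gp1ba, Gp1bb and Gp5, which encode the von Willebrand factor receptor complex, had 15 and 13, 12 and 3, 6 and 3, and 11 and 8 UMIs. Gp6 (a collagen receptor), Treml1 (a granule receptor) and Clec1b (the podoplanin receptor) had 8 and 7, 9 and 9, and 7 and 13 UMIs. Tubb1, the tubulin of the platelet's marginal band, had 2 and 6 UMIs, found in 2 and 5 barcodes. For these 8 genes, a barcode without a UMI is therefore no sign that the transcript was absent from the cell.

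To read each marker where it had not chosen the barcodes, it was counted among barcodes that held at least 2 of the other 12. Nrgn was present in 20 of 21 such barcodes in replicate 1 (95.2%) and 23 of 29 in replicate 2 (79.3%), against 7.21% and 6.04% of the remaining barcodes under 50% haemoglobin. Itgb3 was present in 76.0% and 54.5% against 3.93% and 2.26%. Ppbp was present in 53.1% and 65.6% against 1.79% and 2.25%, and Itga2b in 43.8% and 47.1% against 0.598% and 1.81%. Pf4 was present in 28.1% and 27.0% against 2.19% and 2.05%. The other 8 markers, all receptors or Tubb1, ranged from 6.06% to 28.1% against at most 0.685%. Every marker was more frequent beside other markers in both libraries, by shares far above the 0% to 0.617% found in red cells, although the remaining barcodes were shallower: for Nrgn, the median depth was 462 and 329 non-mitochondrial UMIs in the selected barcodes and 55 and 78 in the rest. How far that gap in depth widens the shares was not tested marker by marker. With every barcode thinned to 100 non-mitochondrial UMIs, which left out 330 and 247 shallower ones, 18 and 22 barcodes still met the rule, of 20 and 32 that were deep enough and met it unthinned.

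**Figure D1:**
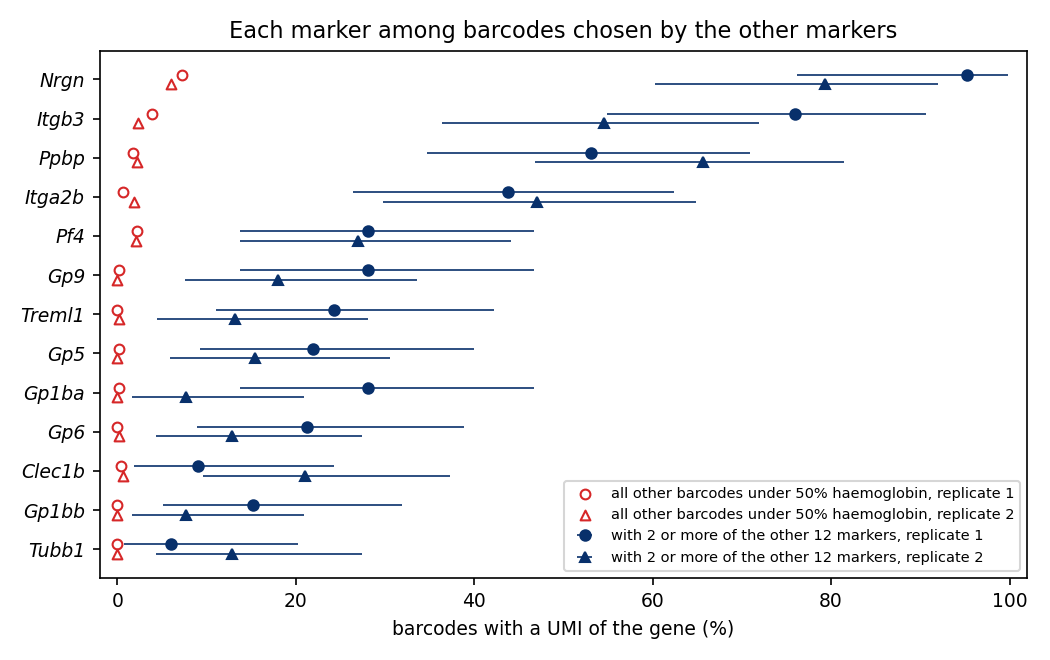
Share of barcodes with a UMI of each marker (horizontal axis, percent) among barcodes with at least 2 of the other 12 markers (filled) and among the remaining barcodes under 50% haemoglobin (open), with exact binomial 95% intervals for the filled points; circles are replicate 1 and triangles replicate 2. Every filled point lies to the right of its open point, from Tubb1 at 6.06% and 12.8% to Nrgn at 95.2% and 79.3%.

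The promoters of the markers were searched for GATAA on either strand (GATAA or TTATC), the core letters bound by GATA1, a factor of megakaryocytes and red cells, in the 250 bases before the RefSeq start (GRCm38.p6). Of 13 markers, 12 had a RefSeq promoter, and 5 of these 12 (41.7%) held the letters, against 22.6% of 32851 promoters of all genes. A share of 12 promoters is imprecise, and its difference from 22.6% was not tested. All 5 promoters with the letters belong to surface receptors. They are shown 5′ to 3′ along the gene, with the matched letters in capitals, since they are the marker promoters in which the letters were found: Gp9 at chr6:87777820-87778069 (plus strand), Gp1ba at chr11:70638872-70639121 (plus), Gp5 at chr16:30310782-30311031 (minus), Gp6 at chr7:4397745-4397994 (minus) and Clec1b at chr6:129397047-129397296 (plus).
Gp9: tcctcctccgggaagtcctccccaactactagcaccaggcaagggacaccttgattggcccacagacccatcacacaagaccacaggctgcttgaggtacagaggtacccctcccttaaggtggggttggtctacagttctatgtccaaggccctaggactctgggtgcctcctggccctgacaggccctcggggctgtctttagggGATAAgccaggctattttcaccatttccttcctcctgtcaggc
Gp1ba: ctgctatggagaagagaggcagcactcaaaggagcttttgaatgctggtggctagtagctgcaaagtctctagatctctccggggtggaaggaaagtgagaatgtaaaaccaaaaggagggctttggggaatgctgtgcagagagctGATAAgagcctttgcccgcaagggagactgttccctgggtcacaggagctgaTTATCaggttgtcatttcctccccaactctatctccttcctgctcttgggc
Gp5: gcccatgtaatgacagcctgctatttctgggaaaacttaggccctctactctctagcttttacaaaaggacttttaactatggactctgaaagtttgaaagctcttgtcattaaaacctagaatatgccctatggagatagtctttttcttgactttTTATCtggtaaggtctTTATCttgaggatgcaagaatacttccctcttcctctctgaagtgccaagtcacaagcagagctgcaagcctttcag
Gp6: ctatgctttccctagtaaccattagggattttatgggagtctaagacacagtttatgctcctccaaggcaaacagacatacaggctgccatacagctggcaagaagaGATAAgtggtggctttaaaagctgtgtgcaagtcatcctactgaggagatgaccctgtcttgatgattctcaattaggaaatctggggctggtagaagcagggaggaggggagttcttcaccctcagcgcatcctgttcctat
Clec1b: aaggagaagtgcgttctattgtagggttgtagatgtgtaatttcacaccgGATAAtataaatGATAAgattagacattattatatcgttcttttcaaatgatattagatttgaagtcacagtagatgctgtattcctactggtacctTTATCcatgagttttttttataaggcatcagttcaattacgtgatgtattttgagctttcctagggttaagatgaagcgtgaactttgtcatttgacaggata
Gp9 and Gp6 held 1 match each, Gp1ba and Gp5 held 2, and Clec1b held 3. A match is a string of letters and not a bound site, and for the other 7 promoters only this window was searched.

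The mitochondrial share, which the rule had not used, spread almost over its whole range. It ran from 4.34% to 96.9% in replicate 1, with a median of 73.8%, and from 2.81% to 95.8% in replicate 2, with a median of 47.4% (mean of medians 60.6% ± 18.7, SD, n = 2). The 2.81% belonged to a mesothelial-marker barcode, and all 4 of these entered the median of replicate 2. Of the 33 barcodes of replicate 1, 5 lay at or under 20%, 6 between 20% and 50%, 7 between 50% and 80% and 15 above 80%. Of the 39 of replicate 2, these numbers were 10, 10, 6 and 13. A filter of at least 100 genes and at most 20% mitochondrial UMIs would have kept 5 and 9 barcodes, 14 of 72, and 4 of the 9 were the mesothelial-marker ones. For barcodes with at least 3 markers, the median mitochondrial share was 28.5% and 41.3%, below the 93.7% and 75.4% of those with exactly 2. The 75.4% of replicate 2 included the 4 mesothelial-marker barcodes, at 2.81% to 4.05%, which pull it down. More markers are found where there are more non-mitochondrial UMIs, so the number of markers and the mitochondrial share are tied. The part of depth in this contrast was not tested.

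Platelet-marker barcodes were most frequent among barcodes with a middling mitochondrial share. They were 5.26% and 6.76% of the barcodes under 50% haemoglobin with at most 20% mitochondrial UMIs, 13% and 45.5% of those between 20% and 50%, 25.9% and 28.6% of those between 50% and 80%, and 4.10% and 4.56% of those above 80%. In replicate 2 the 6.76% was 10 of 148 barcodes, and 6 of the 148 were left without the 4 mesothelial-marker ones. The bin between 20% and 50% held only 46 and 22 barcodes, and its share differed most between the libraries. Non-mitochondrial depth fell across the same bins, from a median of 671 and 962 UMIs through 558.5 and 387 and then 326 and 180 to 59 and 94. At similar total UMIs such a fall is built in, since this depth leaves out the mitochondrial UMIs. The 962 of replicate 2 included the mesothelial-marker barcodes, which held 6899 to 11881 UMIs. The low share above 80% thus went with a low depth, whose part in it was not tested.

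**Figure D2:**
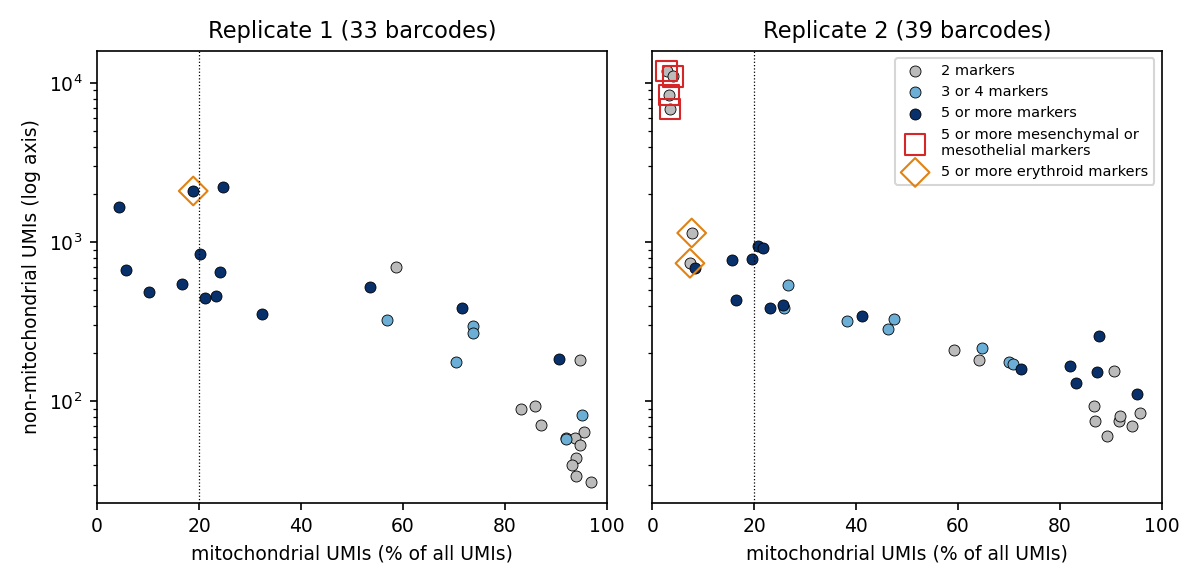
Non-mitochondrial UMIs (vertical log axis) against the mitochondrial share (horizontal axis, percent of all UMIs) of the 33 and 39 platelet-marker barcodes, 1 panel per library, coloured by the number of markers found; squares mark the 4 barcodes with at least 5 mesenchymal or mesothelial markers, diamonds the 3 with at least 5 erythroid markers, and the dotted line 20%. Depth falls as the mitochondrial share rises, which at similar total UMIs is built into the 2 axes, and the 4 squares stand apart at the upper left of replicate 2.

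The markers made up 4.42% of the summed non-mitochondrial UMIs in both libraries for barcodes above 20% mitochondrial. At or under 20% they made up 3.81% and 0.341%; replicate 2 stood at 3.0% without the 4 mesothelial-marker barcodes and at 4.93% without the 2 erythroid-marker barcodes as well. The rule asks for UMIs of 2 markers, which sets a lower limit to this share in shallow barcodes, so it is a description of the selection. The mitochondrial transcripts themselves were shared out much as in other barcodes above 20%: mt-Co3 made up 21.0% and 21.5% of the mitochondrial UMIs of platelet-marker barcodes and 22.6% and 23.1% of the others, mt-Atp6 20.2% and 21.4% against 20.8% and 21.1%, and mt-Co1 13% and 11.7% against 10.9% and 9.78%. These 3 genes encode subunits of the respiratory chain and ATP synthase.

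Other genes were then compared on non-mitochondrial UMIs summed per library and kind of barcode. The main comparison set all platelet-marker barcodes above 20% mitochondrial (28 and 29) against all other barcodes of that kind under 50% haemoglobin (411 and 299), with edgeR's quasi-likelihood test. The limit of 20% did not make the sides alike. The median mitochondrial share was 84.5% and 70.8% in the platelet-marker barcodes and 95.2% in the others of each library. Their median depth was 179 and 178 non-mitochondrial UMIs, against 42 in the others of each library. The part of these gaps in the calls was not tested. Of 911 genes, 0 passed a Benjamini-Hochberg adjusted p of 0.05 (percent called 0), while 325 (35.7%) had an unadjusted p under 0.05. At or under 20% mitochondrial (5 and 10 barcodes against 90 and 138), 0 of 911 passed (percent called 0) and 110 (12.1%) had an unadjusted p under 0.05. DESeq2 on the same sums called 24 genes higher (2.63%) and 258 lower (28.3%) above 20%, together 31%, and 10 higher (1.1%) and 10 lower (1.1%) at or under 20%, together 2.2%. With edgeR and total non-mitochondrial UMIs as the scale, 77 (8.45%) and 52 (5.71%) were called, of which 76 (8.34%) and 49 (5.38%) were higher and 1 (0.11%) and 3 (0.329%) lower. Size factors of the DESeq2 kind gave 16 higher (1.76%) and 187 lower (20.5%) above 20%, and without a filter on low counts 1 of 15595 genes (0.00641%) was called in each comparison. The 4 mesothelial-marker barcodes made up most of the 42776 non-mitochondrial UMIs of the smaller kind in replicate 2, against 5483 in replicate 1, and they entered the spread that all genes of the fit share: its common dispersion was 0.441. When all members at or under 20% were left out of the fit, an alternative added after seeing the data, the same 28 and 29 barcodes above 20% gave 119 genes higher (12.2%) and 421 lower (43.3%) of 973, together 55.5%, with a common dispersion of 0.149.

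The stricter set of at least 3 markers, an alternative planned with the test, also left the members at or under 20% out of its fit. Its 15 and 19 barcodes above 20% mitochondrial were set against the same shallow others of high mitochondrial share. Of 937 genes, 105 were higher (percent called 11.2) and 497 lower (percent called 53) by edgeR. The common dispersion was 0.151 and the median log2 fold change over all genes tested was -2.75. Barcodes of the stricter set at or under 20% could not enter the fit, since replicate 2 had only 4 of them. Scaled by total non-mitochondrial UMIs in place of TMM, a choice made after seeing the data, 216 genes were higher (23.1%) and 150 lower (16%), with a median of -1.30. All 105 higher genes stayed higher under that scaling, but only 150 of the 497 lower ones stayed lower, so lower calls are named below only where both scalings made them. The genes described in the next paragraphs follow from this stricter fit, and it was chosen for the description after the counts of several fits were known. The main fit called none of them. The filter on low counts kept genes that reached its level in a single kind of barcode. Genes scarce in the others, such as Pgm2l1, Ilk, Angpt1 and Alox12, thus entered the test through the platelet-marker sums where they were high. The same holds for Thbs1, Vwf, Parvb, Myl9, Cnn2, Ywhah, Tsc22d1, Hist1h1c and Slc2a3, and these are not all. The higher calls, p-values and folds of such genes are a description of that selection, and so are the counts of higher genes per list that include them. UMIs per 1000000 non-mitochondrial UMIs (CPM) are given for all 43 barcodes with at least 3 markers as mean ± SD of 2 libraries, and folds compare the pooled CPM of these 43 with that of the others above 20% mitochondrial. Log2 fold changes and p-values of the stricter fit cover only its 15 and 19 barcodes and use TMM unless total UMIs are named. They are therefore not the logarithms of the folds: for Actb the log2 fold change was 2.70 with TMM and 4.17 with total UMIs.

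Cytoskeletal genes were the list with most higher calls. Of 30 genes that build, cross-link or move actin, 22 were tested, 16 were higher and 0 lower, with a median log2 fold change of 2.71 against -2.75 for all genes, of which 11.2% were higher and 53% lower. Actb (beta-actin) stood at 18728 and 20920 CPM in the 2 libraries (19824 ± 1551) and at 1016 and 973 CPM in the others, 19.6-fold apart on pooled UMIs (log2 fold change 2.70 ± 1.04, SE, edgeR adjusted p = 0.0177). Parvb (beta-parvin, which ties integrins to actin) stood at 6425 and 7157 CPM against 94 and 111, 67.2-fold (4.52 ± 0.90, edgeR adjusted p = 4.39e-05). In both genes the libraries of the platelet-marker barcodes lay far above both libraries of the others.

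The same list held motor and adhesion genes. Myl9 (the regulatory light chain of non-muscle myosin) had 32 and 14 UMIs, 2507 and 1542 CPM, against 63 and 56 CPM in the others (35.1-fold, edgeR adjusted p = 8.18e-05), and Myh9, the myosin heavy chain, had 58 and 56 UMIs (20.1-fold). Zyx (zyxin, a protein of adhesion sites) had 36 and 30 UMIs (43.1-fold, edgeR adjusted p = 1.29e-05). Ilk, a scaffold that binds integrin tails and parvins, had 20 and 5 UMIs and 0 in the others above 20% mitochondrial, so its level was at least 38.1-fold higher against a floor of 3 UMIs over that group. Tmsb4x, which binds actin monomers, stood at 14653 and 15745 CPM against 1642 and 2225 but did not pass with TMM (1.34 ± 0.98, edgeR adjusted p = 0.212); with total UMIs it did (2.86, edgeR adjusted p = 0.000101).

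Of 22 alpha granule genes, 11 were tested, 5 were higher and 2 lower, with a median of 0.92, beside 11.2% higher and 53% lower of all genes tested. Thbs1 (thrombospondin 1, an adhesive matrix protein) stood at 8071 and 7597 CPM (7834 ± 335) against 188 and 195 CPM, 41.4-fold (3.9 ± 0.93, edgeR adjusted p = 0.000354). Vwf (von Willebrand factor) stood at 2116 and 1762 CPM against 78 and 56, 28.1-fold (3.31 ± 0.81, edgeR adjusted p = 0.000462). Tgfb1 (transforming growth factor beta 1) had 15 and 16 UMIs and Srgn (serglycin, a granule proteoglycan) 15 and 12, and both were among the higher genes. Angpt1, a growth factor for vessels, had 9 and 3 UMIs against 1 UMI in the others. App and Sparc were lower with TMM scaling and passed in neither direction with total UMIs.

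Among 30 surface genes, 9 were tested, 3 were higher and 0 lower (median 1.34), beside the same 11.2% and 53% of all genes. Itga6, the laminin-binding integrin subunit, stood at 4780 and 2973 CPM against 203 and 167, 21.2-fold (2.47 ± 0.67, edgeR adjusted p = 0.00129). Slc2a3, a glucose transporter, stood at 2194 and 2312 CPM against 125 and 139, 17.2-fold, and Cd226, an adhesion receptor, had 5 and 8 UMIs. Cd9, a tetraspanin abundant on platelets, stood at 2037 and 1101 CPM against 188 and 167 without passing with TMM (edgeR adjusted p = 0.265), and passed with total UMIs (edgeR adjusted p = 0.0249).

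Of 30 signalling genes, 21 were tested, 4 were higher (Fermt3, Tln1, Pde5a and Rgs18) and 3 lower, with a median of 0.30. The share of higher genes was not far above the 11.2% of all genes tested, while 53% of all genes were lower. Fermt3 (kindlin-3) and Tln1 (talin-1) are the proteins that switch integrins on. Fermt3 stood at 4780 and 5946 CPM against 235 and 83, 29.2-fold (3.70 ± 0.82, edgeR adjusted p = 0.000169), and Tln1 had 37 and 29 UMIs (3.37 ± 0.72, edgeR adjusted p = 0.000119). Pde5a, which breaks down cyclic GMP, had 17 and 12 UMIs against 3 in the others. The 3 lower genes, Plcg2, Itpr1 and Syk, were not lower with total UMIs.

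Of 12 genes for eicosanoids and redox enzymes, 3 were tested. Alox12, the platelet 12-lipoxygenase, had 27 and 23 UMIs, 2116 and 2532 CPM, against 47 and 28 CPM (57.2-fold, log2 fold change 4.39 ± 0.83, edgeR adjusted p = 2.07e-05), and 0 UMIs among the others at or under 20% mitochondrial. Gpx4, which reduces lipid peroxides, stood at 5563 and 7597 CPM against 78 and 250, 45.7-fold (4.03 ± 0.90, edgeR adjusted p = 0.000175). Gpx1 was lower with TMM scaling and not called with total UMIs. Ptgs1 (cyclooxygenase 1), a textbook platelet enzyme, had only 2 and 1 UMIs and was not in the test.

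For secretion, 3 of 22 genes were tested, and Stx11, a syntaxin needed for platelet granule release, was higher with 16 and 9 UMIs against 3 (edgeR adjusted p = 0.00384). Rab27b, a granule GTPase, had 9 and 8 UMIs and did not pass with TMM (edgeR adjusted p = 0.186) but did with total UMIs (edgeR adjusted p = 0.00992). Slc6a4, the serotonin transporter, had 13 and 2 UMIs. Of 18 megakaryocyte transcription factor genes, 7 were tested, 1 was higher and 4 lower, of which 2 were lower under both scalings; these shares lie near the 11.2% and 53% of all genes tested. The higher one was Tsc22d1, a leucine zipper protein, at 8463 and 7157 CPM against 125 and 195, 52.8-fold (4.18 ± 0.92, edgeR adjusted p = 0.000155). Etv6 was lower under both scalings with 0 UMIs in either library, and Meis1, also at 0, was lower with TMM only.

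**Figure D3:**
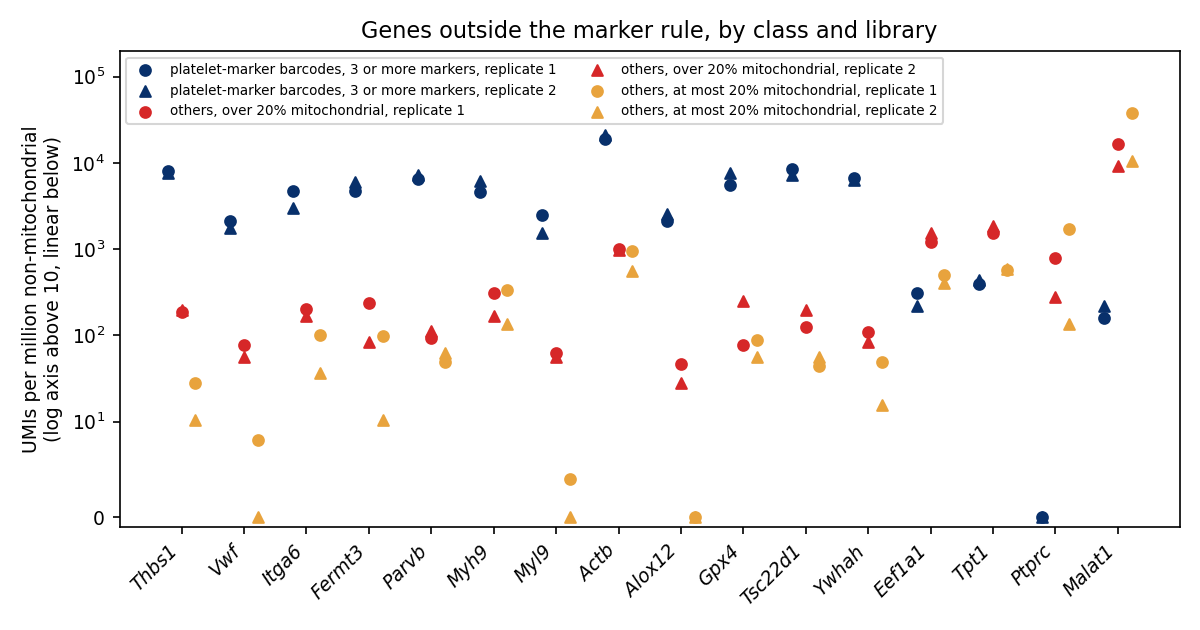
CPM of 16 genes outside the marker rule (vertical axis, log above 10 and linear below) in barcodes with at least 3 platelet markers and in the other barcodes above and at or under 20% mitochondrial, with circles for replicate 1 and triangles for replicate 2. From Thbs1 to Ywhah the platelet-marker points lie above all others, for Eef1a1, Tpt1 and Malat1 they lie below, and for Ptprc they lie at 0.

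Outside the lists, the genes of at least 20 UMIs with the largest positive fold change included Pgm2l1, Smtn, Cnn2, Ywhah, Gas2l1, R3hdm4 and Prkar2b. Pgm2l1, which makes glucose 1,6-bisphosphate, had 8 and 16 UMIs and 0 in the others above 20% mitochondrial, at least 36.6-fold higher. It entered the test through the platelet-marker barcodes alone. Cnn2 (calponin 2, which binds actin) stood at 3291 and 3523 CPM against 47 and 56, 67.7-fold (4.78 ± 0.81, edgeR adjusted p = 2.23e-06). Ywhah, a 14-3-3 adaptor protein, stood at 6739 and 6386 CPM against 109 and 83, 65.9-fold (4.62 ± 0.91, edgeR adjusted p = 4.39e-05).

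Prkar2b, a regulatory subunit of the cyclic AMP-dependent kinase, had 42 and 49 UMIs (41.6-fold), and Gas2l1, which links actin and microtubules, had 33 and 21 (61.8-fold). Smtn (smoothelin, an actin-binding protein) had 22 and 16 UMIs against 2. R3hdm4 had 19 and 16 UMIs against 5. All of these were found in both libraries. On the lower side Plxdc2, Upk3b, Sox5 and Sulf1 had 0 UMIs in both libraries of the 43 barcodes and between 93 and 113 UMIs in the others; Upk3b is a mesothelial marker. GATAA or its complement stood in 16.2% of the promoters matched to the 105 higher genes, of which 80 had a promoter. This is close to the 16.6% of all genes of the test, of which 712 of 937 had one. The 41.7% of the markers rests on 5 of 12 promoters, too few to set against these shares.

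Transcripts of the nucleus were scarce. Malat1, a long noncoding RNA that is kept in the nucleus, had 2 and 2 UMIs in the barcodes with at least 3 markers, 157 and 220 CPM, against 16618 and 9178 CPM in the others above 20% mitochondrial and 38376 and 10614 CPM in those at or under 20%. On pooled UMIs it was 76.1 times lower than in the others above 20% (log2 fold change -6.86 ± 1.56, edgeR adjusted p = 0.000202), and it was lower with both scalings. Neat1 and Kcnq1ot1 were lower with TMM only. Gm26917 was lower with both scalings, at 0 UMIs, but it was placed on the nuclear list without a check of where its RNA lies. Over all 72 barcodes Malat1 had 1759 UMIs, of which the 4 mesothelial-marker barcodes held all but 9. The proliferation list had 0 UMIs in both libraries of the stricter set, and only 20 and 2 in the others above 20% mitochondrial.

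Ribosomal protein genes, a group looked at after their values were seen, made up 1.09% and 1.01% of the non-mitochondrial UMIs of the stricter set (96 genes, 231 UMIs). They made up 4.51% and 5.24% in the others above 20% mitochondrial, 1.53% and 0.947% in those at or under 20%, and 0.324% and 0.313% in red cells. Of 74 tested, 71 were lower with TMM, where 53% of all genes were lower, and 23 with total UMIs, where 16% of all genes were, and 0 were higher. The stable transcripts Eef1a1 (a translation elongation factor) and Tpt1 were lower under both scalings, at 313 and 220 CPM against 1204 and 1530, and at 392 and 440 CPM against 1532 and 1863. The linker histone gene Hist1h1c, in contrast, stood at 3683 and 3634 CPM against 78 and 111, 40.7-fold (3.94 ± 0.78, edgeR adjusted p = 4.39e-05).

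Markers of other blood cells had few UMIs or 0, at a low depth. Ptprc (CD45), the defining leukocyte marker, had 0 UMIs in all 72 barcodes against 60 UMIs in the others above 20%, which makes its level in the 43 barcodes at least 4.37-fold lower against the floor. T and NK cell markers (13 genes) and basophil or mast cell markers (5 genes) had 0 UMIs in all 72. In the others above 20% the former had only 14 and 3 UMIs and the latter 0 and 1. In the stricter set B cell markers had 1 and 3 UMIs, neutrophil markers 1 and 4, monocyte or macrophage markers 2 and 9 and endothelial markers 0 and 0. B cell markers stood at 78 and 330 CPM against 4534 and 1696 in the others above 20%. Neutrophil markers stood at 78 and 440 against 485 and 528, and monocyte or macrophage markers at 157 and 991 against 1923 and 1724. In replicate 2 alone, both exceeded the others at or under 20% (10.3 and 51.6 CPM). Endothelial markers had only 5 and 7 UMIs in the others above 20%. Pan-leukocyte markers had 30 and 7 UMIs, of which Laptm5, a lysosomal membrane protein, held 27 and 7. Laptm5 was higher than in the others (2.61 ± 0.80, edgeR adjusted p = 0.00374) while Ptprc, Dock2 and Arhgap15 of the same list were lower with both scalings.

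Of red cell transcripts, haemoglobin was lower than in the others above 20% mitochondrial, and the other erythroid markers together were higher. Haemoglobin made up 2.04% and 1.59% of the non-mitochondrial UMIs of the stricter set and 4.38% and 9.47% of those of the others above 20%. Of the 14 other erythroid markers, 57 and 30 UMIs were found, including 28 and 18 of Mkrn1, a gene also found in red cells. These 14 stood at 4466 and 3303 CPM, against 1266 and 1891 in the others above 20% and 8686 and 8011 in red cells. In the others at or under 20% they stood at 1983 and 11522 CPM. Mkrn1 was 9.56-fold higher on pooled UMIs. It did not pass with TMM (edgeR adjusted p = 0.0698) but did with total UMIs (edgeR adjusted p = 0.00017). The part of red cell transcripts in the levels above was not tested. Mesenchymal markers had 4 and 5 UMIs and mesothelial or epithelial markers 0 and 4.

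At or under 20% mitochondrial, counts could be made once the 4 mesothelial-marker barcodes were left out, again a choice made after seeing the data. This left 5 and 6 platelet-marker barcodes, and of 442 genes 52 were higher (percent called 11.8) and 212 lower (percent called 48) than in the other barcodes of that kind. The 6 of replicate 2 still included the 2 erythroid-marker barcodes, with 738 and 1144 of the 4560 UMIs. With at least 3 markers and classes of 4 barcodes, also added after seeing the data, which leaves both out, 44 were higher (9.57%) and 218 lower (47.4%) of 460. The fit without the 4 mesothelial-marker barcodes called 37 genes higher (8.37%) and 203 lower (45.9%) above 20%, and 26 genes were higher in both, which is 70.3% of the 37 and 50% of the 52; the platelet-marker and the other barcodes of the 2 comparisons are separate barcodes of the same libraries. Thbs1 stood at 5471 and 7018 CPM in these barcodes against 28.3 and 10.3 CPM (5.25 ± 0.9, edgeR adjusted p = 6.17e-07). Fermt3 (3.42 ± 0.76, edgeR adjusted p = 3.32e-05), Ywhah (4.32 ± 0.82, edgeR adjusted p = 1.67e-06) and Tsc22d1 (3.85 ± 0.83, edgeR adjusted p = 1.69e-05) were higher as well, while Actb was not called (1.57 ± 0.87, edgeR adjusted p = 0.108).

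The last comparison asked whether platelet-marker barcodes above and at or under 20% mitochondrial differed in other genes. Of 911 genes, 0 passed (edgeR, percent called 0), 73 (8.01%) had an unadjusted p under 0.05, and DESeq2 called 2 higher (0.22%) and 1 lower (0.11%), together 0.329%. Without the 4 mesothelial-marker barcodes, an alternative added after seeing the data, 0 of 442 passed (percent called 0) and 30 (6.79%) had an unadjusted p under 0.05. In that fit the log2 difference was 0.06 ± 0.74 (SE) for Thbs1, 0.03 ± 0.72 for Tsc22d1, 0.11 ± 0.68 for Alox12, 0.18 ± 0.68 for Fermt3 and -0.26 ± 0.85 for Actb. With errors of this size, differences of several fold could not have been seen, and the misses do not show that the barcodes were alike.

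The summed lists differed to varying degrees between the kinds of platelet-marker barcode. Alpha granule genes stood at 18982 and 15083 CPM above 20% and at 15138 and 16009 CPM at or under it without those 4, and the cytoskeletal list at 76040 and 82088 and at 88455 and 64912 CPM. Surface genes stood at 12617 and 13214 CPM above 20% and at 18056 and 8114 at or under it, where the libraries lay on either side. Nuclear long noncoding RNAs stood at 682 and 667 CPM against 182 and 219, the latter from 1 UMI in each library. Ribosomal protein genes differed more, at 1.95% and 1.74% of non-mitochondrial UMIs above 20% mitochondrial and 0.492% and 0.504% at or under it, where they rested on 50 UMIs in all. Gm42418, a locus that overlaps ribosomal RNA, took 18.4% and 19.0% above 20% and 26.4% and 39.0% at or under it, or 26.4% and 26% without the 2 erythroid-marker barcodes. No test was made of these sums.

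**Figure D4:**
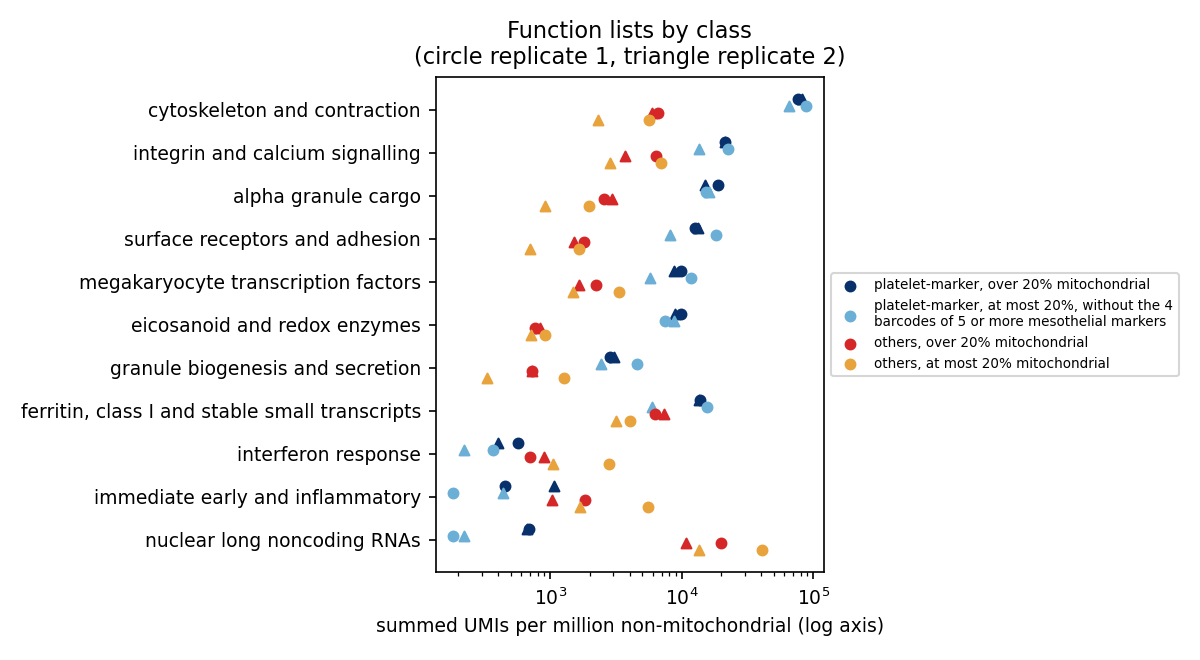
Summed CPM of 11 function lists (horizontal log axis) in platelet-marker barcodes above and at or under 20% mitochondrial and in the other barcodes of both kinds, with circles for replicate 1 and triangles for replicate 2. The platelet-marker points of both kinds lie above the others for the top 7 lists and below them for nuclear long noncoding RNAs.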

How the data were processed

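Single-cell RNA was measured in 2 libraries of iChip-sorted blood from wild type, burn/tenotomy mice. The deposited matrices give whole UMI counts, not normalized, per the file headers and the values. The submitters' processing notes name Cell Ranger 7.1.0, Seurat 5 and mm10. No source used here states how barcodes were called; none held under 500 UMIs in replicate 1 or 501 in replicate 2.

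The members, gene lists (12 of function with 229 genes, 11 of cell markers) and tests were chosen with earlier results of these data known, and the lists are no independent evidence. Rule genes and mitochondrial genes were not tested. Non-mitochondrial counts were summed per library and kind of barcode (at least 5 barcodes in each library), filtered with filterByExpr, scaled by TMM and tested in R 4.3.3 with edgeR 4.0.16 (quasi-likelihood, library as a block, since both sides come from the same libraries), with Benjamini-Hochberg adjustment at 0.05 over all genes tested. In several edgeR fits the spread was wholly the one shared across genes, so a gene's own difference between libraries did not enter its p-value. These were the fits of at least 3 markers, the TMM fit without the 4 mesothelial-marker barcodes, and the main sums scaled by total UMIs or without a filter. DESeq2 1.42.0 was an alternative. The edgeR script was tested on simulated data. Genes named were the 3 with most UMIs of each function list plus, by size of change, those past the threshold (up to 4 per list, 8 higher and 4 lower outside the lists); since the main fit called none, the latter part of that rule was applied to the fit of at least 3 markers after values were seen. Further genes (Tgfb1, Srgn, Myh9, Rgs18, Selp, Ptprc, Laptm5 and Mkrn1 among them) were also chosen after their values were seen. Results of some genes that the rule names are not reported here. A floor is 3 UMIs over the group. Coordinates come from GENCODE M21 (GRCm38, the assembly of mm10) for 23 genes, whose IDs all matched the files, and promoters from RefSeq.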

Additional observations from a re-analysis of the deposited data

Results flagged for a closer look

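Platelet markers were also found outside the barcodes taken. Among the barcodes with at least 50% haemoglobin, 474 in replicate 1 and 373 in replicate 2, 1 in each library held UMIs of at least 2 of the 13 markers. These barcodes held 7 and 5 marker UMIs, 12 in all; since they were picked for holding markers, this is a description. The red cells, which have at least 90% haemoglobin, held 5 marker UMIs over all 173 and 162. They were left out by the haemoglobin limit and enter no comparison above.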

How the results depend on the processing

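Depth was the main limit: the median platelet-marker barcode had 268 and 284 non-mitochondrial UMIs, and most genes rest on a few UMIs in 2 libraries. The share of barcodes taken was 3.93% in the mean; it moved to 2.35% with at least 3 markers, 9.04% with at least 1 and, as a share of the barcodes that pass it, 1.82% under a filter of 100 genes and 20% mitochondrial, and stayed within 1 SD (3.15% to 4.04%) when thinned, with haemoglobin under 10% or with no haemoglobin limit. The median mitochondrial share moved from 60.6% to 34.9% with at least 3 markers.

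Counts of genes called depended on the setting. Above 20% mitochondrial the main count of 0 became 282 with DESeq2, 203 with size factors of the DESeq2 kind, 77 with total UMIs, 1 with no filter on low counts, 602 with at least 3 markers and 434 without members of at least 2 leukocyte markers (86 higher and 348 lower). Both of these fits also lost the members at or under 20%, and leaving out only those, added after seeing the data, gave 540 (119 and 421). Among other settings added after seeing the data it was 240 without the 4 mesothelial-marker barcodes (37 higher and 203 lower), 250 with total UMIs as well (180 and 70), 241 with at least 3 markers and classes of 4 barcodes (65 and 176), and 366 with at least 3 markers and total UMIs. At or under 20% it became 20 with DESeq2, 52 with total UMIs and 1 with no filter, and, in the added settings, 264 without the 4 barcodes (52 and 212), 199 with total UMIs as well (162 and 37) and 262 with classes of 4 barcodes (44 and 218). Between the kinds of platelet-marker barcode it became 3 with DESeq2 and 1 with no filter. Each of the 3 counts stayed at 0 with haemoglobin left out, with a split at 50% and without the replicate block (0); leaving out others with exactly 1 marker, run for the first 2, also gave 0. Without the 4 barcodes the common dispersion was 0.163; the cause of the other shifts was not tested. At or under 20%, the fits with at least 3 markers and without leukocyte-marker members were not run, since too few barcodes were left.

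Of 58 fold changes of genes named by the rule, 12 had the opposite sign without replicate 1 and 4 without replicate 2. These values are log2 CPM differences within 1 library, so the scaling changed from TMM to total UMIs as well, and which of the changes turned a sign cannot be told from them. They were, above 20%, -2.0 to 0.68 for Atf3, -0.06 to 1.64 for Ifitm3, 0.05 to 0.68 for Meg3 and -0.6 to 2.26 for Ptgs1. At or under 20% they were -1.83 to 2.14 for App, -1.95 to 3.91 for Atf3, -0.14 to 1.64 for Eef1a1, 0.22 to 2.50 for Gnas, -0.23 to 2.50 for Ifitm3, -1.17 to 1.84 for Jund, -8.72 to 1.95 for Malat1, -2.25 to 2.70 for Meg3, -2.03 to 1.71 for Meis1 and -3.44 to 2.56 for Neat1. With total UMIs 10 reversed: Ifitm3 to 0.59 and Ptgs1 to 0.88 above 20%, and App to 0.92, Eef1a1 to 0.80, Gnas to 1.32, Ifitm3 to 1.11, Jund to 0.65, Meg3 to 1.18, Meis1 to 0.50 and Neat1 to 0.14 at or under it. Without the replicate block App went to 0.02, Ifitm3 to 0.05 and Meg3 to 0.36. B2m reversed above 20% to -0.21 with size factors of the DESeq2 kind, -0.70 without the 4 barcodes and -0.16 with classes of 4, and at or under it to -0.65 and -0.96. Cd9 went to -0.37 without the 4 barcodes, and Gnas to 1.96 with total UMIs as well. The summed interferon list moved to 267 CPM with at least 3 markers; 11 of 12 list levels stayed within 1 SD.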

Other observations

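Interferon and immediate early genes, which the report did not describe, rested on few UMIs in the barcodes with at least 3 markers. The 14 interferon genes had 4 and 2 UMIs, 313 and 220 CPM, against 704 and 890 CPM in the other barcodes above 20% mitochondrial and 2770 and 1047 CPM in those at or under 20%. The 18 immediate early and inflammatory genes had 4 and 10 UMIs, 313 and 1101 CPM, against 1845 and 1029 CPM and 5500 and 1671 CPM. Against the others above 20%, this list was thus lower in replicate 1 and slightly higher in replicate 2. Jund, a transcription factor of that list, had 1 and 0 UMIs in all barcodes with at least 3 markers, 7.21 times lower on pooled UMIs than in the others above 20%. It was lower with both scalings in the stricter fit (with TMM, edgeR adjusted p = 0.00158). Its log2 fold change there, -7.77 ± 2.15, overstates the gap, since the barcodes fitted held no UMI of it. Within the libraries the log2 CPM differences were -2.29 and -2.15.

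Selp (P-selectin, an adhesion receptor stored in alpha granules) had 7 and 4 UMIs in the 43 barcodes and Ctla2a, a protease inhibitor, had 29 and 28, at 2272 and 3083 CPM against 281 and 250 CPM in the others above 20% mitochondrial.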
